A study of Mus musculus with 6 samples.

Results

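The core circadian clock genes were followed here in nuclei of the mouse hippocampus after a single dose of CI-994, an inhibitor of class I histone deacetylases (HDACi). The set holds 10 genes of the 31053 in the deposited count matrices, taken by symbol: Arntl, Clock, Npas2, Per1, Per2, Per3, Cry1, Cry2, Nr1d1 and Nr1d2. Gene expression was measured by droplet single-nucleus RNA-seq in 6 libraries of C57BL/6 male mice aged 12 weeks, each library made from 5 pooled animals. The HDACi-CFC group (2 libraries) received 30 mg/kg CI-994 intraperitoneally 1 h before contextual fear conditioning, a 3 min habituation followed by 2 foot shocks of 0.2 mA. The HDACi-Context library (1) came from mice given the same dose and the same time in the chamber without shocks. The Veh-CFC group (2 libraries) and the Veh-Context library (1) had the same exposures after an injection of the solvent alone. All 30 mice were therefore injected, handled and placed in the chamber, all were killed 1 h after the exposure, and all nuclei were isolated in the presence of actinomycin D, a transcription blocker. The free-text description of the library labelled Veh-Context names the inhibitor whereas its title and treatment label name the vehicle, and the treatment label was followed. The mice lived in a light-dark cycle and the hour of killing is not given in the labels, so time of day was not tested.

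The mammalian clock is a transcription loop. ARNTL (BMAL1) pairs with CLOCK or with its paralog NPAS2 and activates genes through E-box sequences, among them the Period (Per) and Cryptochrome (Cry) genes, whose proteins return to the nucleus and repress the pair. A second loop runs through REV-ERBα and REV-ERBβ (Nr1d1 and Nr1d2), which are E-box targets too and which recruit the NCoR corepressor with HDAC3 to ROR elements in Arntl and other genes. In the hippocampus these genes are expressed in neurons and glia and are known to take part in the daily variation of memory.

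The libraries held 4070 to 6116 barcodes and 24508202 to 45570814 unique molecular identifiers (UMIs, counted transcripts) each, 26839 of the 30323 nuclei were kept, and the kept nuclei had a median of 5368 to 6808 UMIs and 2218 to 3035 genes per library. The tissue label names the dentate gyrus (DG), but markers of other hippocampal neurons and of glia were also present, and 12 classes with at least 30 nuclei in every library were analysed. They comprised DG granule-like (9015 nuclei), CA1-like (4731), CA3-like (1169), subicular or cortical-like (709), interneuron-like (1611), immature neuron-like (438) and Cajal-Retzius-like (258) neurons, astrocyte-like (1174), oligodendrocyte-like (3337), oligodendrocyte precursor (OPC)-like (702) and microglia-like (1327) nuclei, and Cluster 7 (1178 nuclei led by Vgll3, Col6a1 and Amigo2), which was given no cell type name. DG granule-like nuclei made up 32.4% and 31.2% of the HDACi-CFC libraries, against 29.9% and 35% of the Veh-CFC libraries. Pairs of libraries shared 1 to 11 barcodes, at most 0.294% of the smaller library. The UMIs of each class were summed per library, and levels are given as CPM (UMIs scaled to a common total for the class in each library), adjusted by the trimmed mean of M-values (TMM) where drug groups are compared gene by gene. Summed marker lists are given in CPM without TMM throughout, so their differences between drug groups are not on the scale of the gene values.

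Over all 6 libraries the members collected 22855 UMIs for Npas2, 20781 for Clock, 18985 for Arntl, 12651 for Cry2, 10102 for Nr1d2, 3833 for Per2, 2575 for Per1, 1999 for Nr1d1, 1551 for Cry1 and 0 for Per3. If Per3 reads were counted at all, a count of 0 allows Per3 at up to 0.0722 to 0.141 CPM over the kept nuclei of a library (3 UMIs, counting error only). On GRCm38 the Per3 gene (chr4:151003652-151044665, minus strand) lies along its whole length inside Camta1 on the same strand, and how the authors' counting treated reads of such genes is not given in the sources used here. The count of 0 is thus no measure of whether Per3 was expressed. Per3 was therefore not tested, and the results below rest on 9 members. Nr1d1 (chr11:98767932-98775333, minus strand) overlaps Thra, a thyroid hormone receptor gene on the opposite strand, over 1075 bp. Whether counting used strand is not stated, so reads of the Nr1d1 and Thra ends cannot be told apart, and Thra values are given beside the Nr1d1 results that were called or had an interval on 1 side of 0 in the classes described. On the same build Arntl lies at chr7:113207465-113314126 (plus strand), Npas2 at chr1:39193731-39363236 (plus), Clock at chr5:76209868-76304792 (minus), Per1 at chr11:69095217-69109960 (plus), Per2 at chr1:91415982-91459324 (minus), Cry1 at chr10:85131700-85185064 (minus), Cry2 at chr2:92403646-92434043 (minus) and Nr1d2 at chr14:18204054-18239127 (minus). Arntl overlaps the antisense gene Gm45355, which had 7 UMIs in DG granule-like nuclei of the 4 CFC libraries.

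The promoters of 5 members whose levels changed under the inhibitor in DG granule-like nuclei are shown because the loop is defined by short elements in them. Each runs from 250 bases before to 50 bases after a RefSeq transcription start site (GRCm38.p6), 5′ to 3′ on the strand of the gene, and capitals mark an E-box (CACGTG), the E-box-like CACGTT or a ROR element core (RRE; AGGTCA or GGGTCA) found on either strand. The regions are chr7:113207261-113207560 on the plus strand for Arntl (the downstream of 2 listed start sites) and, all on the minus strand, chr2:92434020-92434319 for Cry2, chr10:85185005-85185304 for Cry1, chr11:98775328-98775627 for Nr1d1 and chr14:18239057-18239356 for Nr1d2.
Arntl: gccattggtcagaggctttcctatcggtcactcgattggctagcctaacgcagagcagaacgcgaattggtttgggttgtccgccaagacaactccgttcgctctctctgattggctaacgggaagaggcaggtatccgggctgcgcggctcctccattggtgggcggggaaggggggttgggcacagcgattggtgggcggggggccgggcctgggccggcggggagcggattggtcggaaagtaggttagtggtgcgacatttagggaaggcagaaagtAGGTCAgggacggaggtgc
Cry2: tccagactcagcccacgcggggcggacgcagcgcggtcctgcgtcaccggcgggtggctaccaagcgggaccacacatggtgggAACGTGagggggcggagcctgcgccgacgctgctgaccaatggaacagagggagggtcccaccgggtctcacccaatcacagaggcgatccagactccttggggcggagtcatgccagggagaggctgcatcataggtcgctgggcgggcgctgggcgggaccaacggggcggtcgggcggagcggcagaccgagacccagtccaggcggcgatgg
Cry1: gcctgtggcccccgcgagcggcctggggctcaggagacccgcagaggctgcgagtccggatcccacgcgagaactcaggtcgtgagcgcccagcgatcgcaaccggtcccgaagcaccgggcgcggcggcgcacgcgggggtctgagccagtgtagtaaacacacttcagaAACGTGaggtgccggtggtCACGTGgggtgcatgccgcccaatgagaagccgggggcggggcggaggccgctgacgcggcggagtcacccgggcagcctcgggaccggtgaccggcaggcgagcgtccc
Nr1d1: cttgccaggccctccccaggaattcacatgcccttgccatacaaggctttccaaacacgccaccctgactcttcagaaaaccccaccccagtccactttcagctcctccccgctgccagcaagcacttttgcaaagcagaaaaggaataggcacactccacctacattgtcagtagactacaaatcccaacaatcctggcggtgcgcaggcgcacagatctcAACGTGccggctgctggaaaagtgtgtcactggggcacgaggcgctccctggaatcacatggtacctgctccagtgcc
Nr1d2: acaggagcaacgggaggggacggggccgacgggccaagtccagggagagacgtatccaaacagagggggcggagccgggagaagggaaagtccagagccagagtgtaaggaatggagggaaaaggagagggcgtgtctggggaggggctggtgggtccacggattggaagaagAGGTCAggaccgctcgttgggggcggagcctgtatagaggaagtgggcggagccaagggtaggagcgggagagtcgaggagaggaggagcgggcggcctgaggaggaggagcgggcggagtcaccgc
The printed Arntl window held an RRE core at base 31 after the start site, that of the other listed Arntl start site held none of the motifs, and the Nr1d2 window held one 77 bases before it. Cry1 carried an E-box at -60 and CACGTT at -79, Cry2 carried CACGTT at -166 and Nr1d1 at -28. Among the members not printed, Per1 held an E-box at -166 and an RRE core at -137 at its first listed start site, Clock an RRE core at -119 at the last of its listed sites, and Per3 a D-box (TTATGTAA or TTACGTAA) at -205 and at -158. Npas2 matched none of the motifs searched, and no member window searched (Per2 had no entry) held a cAMP response element (CRE; TGACGTCA). Of all 32851 RefSeq mouse promoter windows of this length, 7.15% held CACGTG, 4.68% CACGTT, 27.5% an RRE core, 1.06% a D-box and 1.79% a CRE. A match is a description of the letters only.

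Without the drug, astrocyte-like nuclei had the highest CPM of 6 of the 9 members (Arntl, Npas2, Per1, Per2, Cry2 and Nr1d1) and the lowest of Clock. The astrocyte-like values of Npas2, Arntl, Per1, Cry2 and Nr1d1 lay above those of the next class by mean, whereas for Cry1 and Nr1d2 no neighbouring classes in the order of means stood apart. These levels are a description over the 3 vehicle libraries (both Veh-CFC and the library labelled Veh-Context), given in that order and without TMM scaling.

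Among the activators, Npas2 had 409, 423 and 257 CPM in astrocyte-like nuclei, 214, 189 and 176 CPM in subicular or cortical-like nuclei and 175, 179 and 146 CPM in CA1-like nuclei. Every astrocyte-like value lay above every value of the other classes, and the mean of 363 ± 92.0 CPM (SD, n = 3) was 21.4 times the lowest class mean, 16.9 ± 2.60 CPM in oligodendrocyte-like nuclei. The subicular and CA1-like values overlapped, and both classes lay above the 9 below them. Arntl had 133, 175 and 118 CPM in astrocyte-like nuclei, 95.8, 96.0 and 90.5 CPM in CA1-like nuclei, 48.9, 54.0 and 49.7 CPM in DG granule-like nuclei and 30.5, 32.0 and 29.0 CPM in oligodendrocyte-like nuclei. Both ends of its order stood clear of their neighbours, and the other 9 of 11 neighbouring pairs overlapped. Clock ran the other way at those ends, with 157, 161 and 177 CPM in oligodendrocyte-like nuclei and 69.4, 82.1 and 77.9 CPM in astrocyte-like nuclei. It also had the narrowest range of any member, 2.16-fold from the highest class mean to the lowest.

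Among the repressors, Per1 had 52.5, 54.2 and 53.0 CPM in astrocyte-like nuclei, 39.5, 39.5 and 45.2 CPM in oligodendrocyte-like nuclei and 12.9, 9.51 and 9.24 CPM in DG granule-like nuclei. The astrocyte-like values lay just above all others except 1 of 54.2 CPM in Cajal-Retzius-like nuclei. Per2 had 61.9, 49.6 and 53.0 CPM in astrocyte-like nuclei, which overlapped OPC-like nuclei at 57.4, 46.7 and 40.3 CPM. CA1-like nuclei followed at 34.7 ± 5.56 CPM and DG granule-like nuclei at 27.4 ± 6.75 CPM (SD, n = 3 each), and these 2 overlapped. Cry2 had 95.7, 92.9 and 101 CPM in astrocyte-like nuclei, clear of DG granule-like nuclei at 56.5, 58.4 and 50.4 CPM, while microglia-like nuclei were lowest at 19.2 ± 5.74 CPM. Cry1 was highest in interneuron-like nuclei at 19.5 ± 4.46 CPM and lowest in Cluster 7 at 6.02 ± 2.42 CPM, and every neighbouring pair in its order overlapped.

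In the REV-ERB loop, Nr1d1 had 69.4, 79.0 and 32.7 CPM in astrocyte-like nuclei and 12.2, 18.1 and 12.8 CPM in subicular or cortical-like nuclei, the next class by mean, although 1 immature neuron-like value of 21.8 CPM lay higher. Below the astrocyte-like nuclei all neighbouring classes overlapped, down to 4.13 ± 0.847 CPM in microglia-like nuclei. Nr1d2 was more even, with a 2.96-fold range of class means and no neighbouring pair apart. Its highest mean, in Cajal-Retzius-like nuclei, rested on 11, 11 and 26 UMIs.

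**Figure D1:**
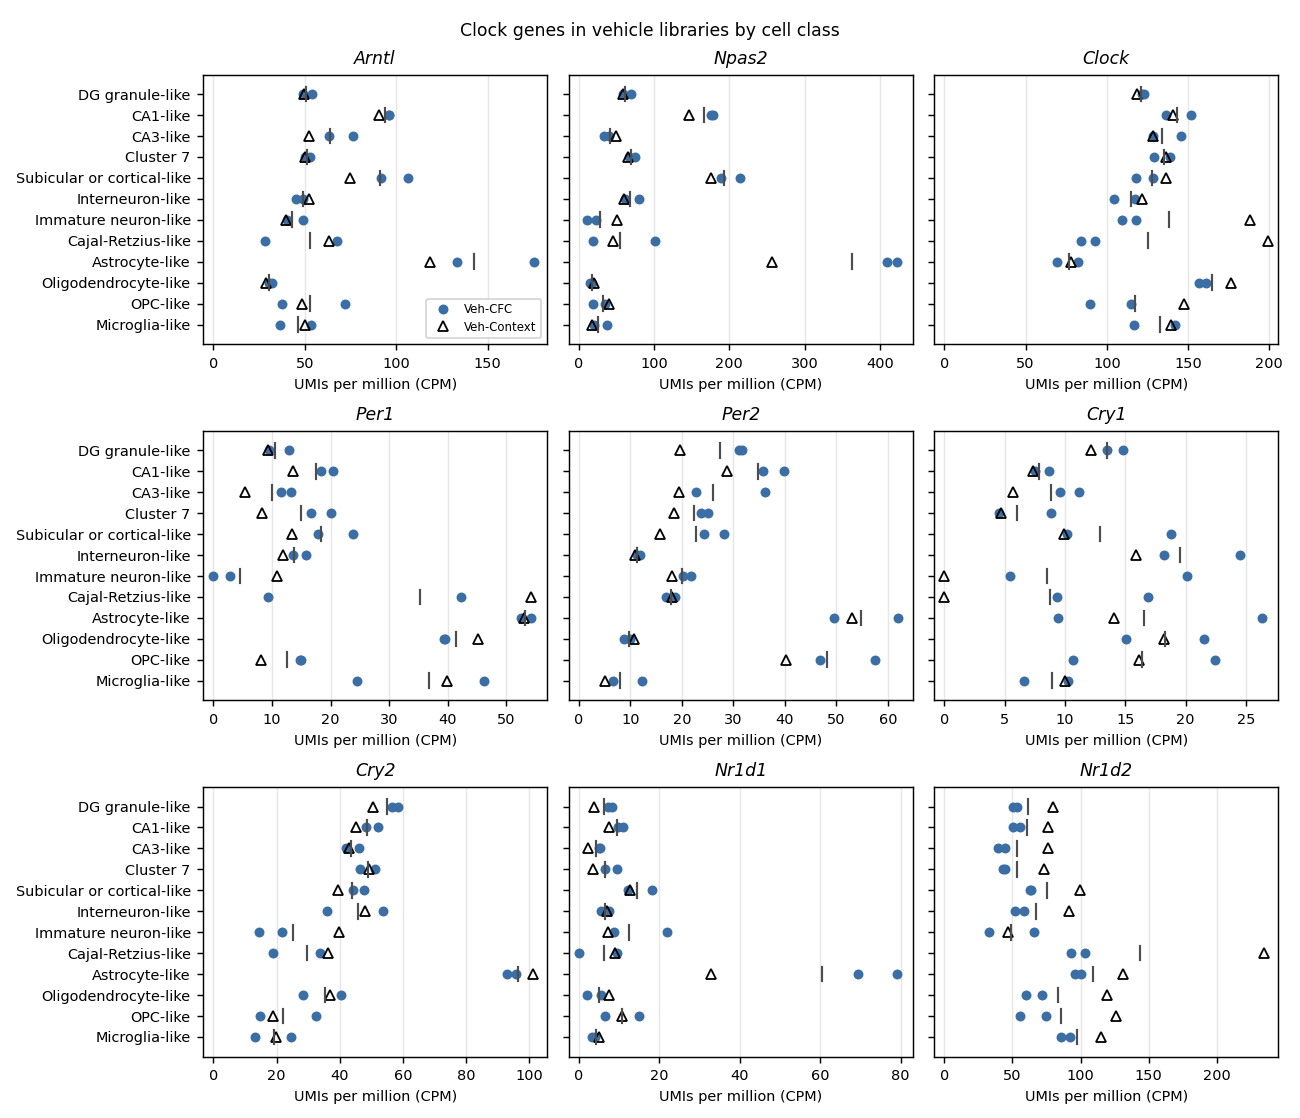
Level of each detected member (CPM, each panel with its own axis starting at 0) in 12 classes of nuclei from the vehicle libraries; circles are the 2 Veh-CFC libraries, triangles the library labelled Veh-Context and bars the mean of the 3. Astrocyte-like nuclei were highest for 6 members and lowest for Clock, and the Nr1d2 triangles lay above both circles in 11 of 12 classes. The classes come from the same libraries, and the share of all genes placed so is not given here.

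CPM sets each gene against the other RNA of its class, and the classes held different amounts of RNA per nucleus. Counted as UMIs per 100 nuclei, the highest class was CA1-like for Arntl, Per1 and Per2, CA3-like for Clock, Cry2 and Nr1d2, subicular or cortical-like for Npas2, interneuron-like for Cry1 and astrocyte-like for Nr1d1. Arntl then had 95.1, 109 and 103 UMIs per 100 CA1-like nuclei, and Npas2 had 181, 221 and 167 UMIs per 100 subicular or cortical-like nuclei. The Npas2 excess of astrocyte-like over DG granule-like nuclei was 2.52 (log2) in CPM and 1.48 per nucleus, and that of Nr1d1 was 3.23 and 2.18. For Per2, Cry2 and Nr1d2 the sign turned, with 1.02, 0.81 and 0.85 in CPM against -0.02, -0.23 and -0.19 per nucleus.

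The genes whose levels ran most like a member's over the 36 vehicle profiles (12 classes in 3 libraries, Pearson correlation of log2 CPM, 10906 genes compared) included another member for 3 of the 9. Arntl was nearest to Npas2 (0.842), followed by Slc20a1 (0.741) and Scp2 (0.711), and Npas2 was nearest to Arntl, followed by Adcy2 (0.788) and P4ha2 (0.777). For Cry2, Npas2 (0.763) came after Lgr4 (0.776) and Garem1 (0.766). The nearest gene was Ccnyl1 for Clock (0.797), Jade2 for Per1 (0.845), Shroom4 for Per2 (0.872), Dnajc4 for Cry1 (0.785), Prdm16 for Nr1d1 (0.81) and Ndufa6 for Nr1d2 (0.861). Profiles from 1 library share its depth and its pool of mice, so these are descriptions.

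The main comparison set the HDACi-CFC libraries against the Veh-CFC libraries, which addresses how the inhibitor changed transcript levels in conditioned mice. In DG granule-like nuclei, the granule neurons that receive the main cortical input to the hippocampus, the members split. Arntl, Cry2, Nr1d1 and Npas2 were higher in the treated libraries, Clock, Per2, Cry1 and Nr1d2 were lower, and Per1 was near 0 change. Arntl and Cry2 changed most, 2.82-fold and 2.92-fold. Thus 8 of the 9 members tested passed the threshold (adjusted p under 0.05, edgeR quasi-likelihood test, adjusted by the Benjamini-Hochberg method across the class's 15600 tested genes), 4 in each direction. With a stricter marker gate per nucleus in place of clusters, which 1117 of the 9015 nuclei passed, 4 were called (Arntl, Cry2, Nr1d1 and Clock), and Npas2, Per2, Cry1 and Nr1d2 were not. The share of all genes called with that gate is not given here. Of the 15600 genes tested in the class by clusters, 50.2% passed, 23.7% higher and 26.5% lower, so a call in this class is not rare. The median log2 change was -0.04 over the members and 0.01 over all genes tested.

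Arntl, the obligate activator of the loop, had 131 and 127 CPM in HDACi-CFC, against 43.4 and 47.5 CPM in Veh-CFC. The treated values lay far above the vehicle ones, with means of 129 ± 3.16 and 45.5 ± 2.91 CPM (SD, n = 2 each) and a log2 change of 1.50 ± 0.09 (SE; adjusted p = 4.55e-11). Its partner Clock had 76.4 and 72.3 CPM in HDACi-CFC, against 108 CPM in both Veh-CFC libraries. Clock thus fell by 0.55 ± 0.08 on the log2 scale (adjusted p = 1.60e-05), with no overlap. Npas2, the alternative partner, had 75.5 and 90.9 CPM in HDACi-CFC, against 51.9 and 60.4 CPM in Veh-CFC, a log2 change of 0.57 ± 0.10 (adjusted p = 0.000117). That call depended on the scaling, since with library-size scaling the Npas2 change was 0.20 (adjusted p = 0.0989) and per nucleus 0.06 (adjusted p = 0.795).

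The 2 cryptochromes moved in opposite directions. Cry2 had 154 and 143 CPM in HDACi-CFC, against 50.2 and 51.4 CPM in Veh-CFC, a log2 change of 1.54 ± 0.08 (adjusted p = 2.36e-11). Cry1, the stronger repressor of the pair in biochemical work, had 5.99 and 6.88 CPM in HDACi-CFC, against 12.0 and 13.1 CPM in Veh-CFC. Cry1 was 1.93-fold lower under the inhibitor, a log2 change of -0.95 ± 0.18 (adjusted p = 0.000248). Per2, the partner of the cryptochromes in the repressor complex, had 20.3 and 17.0 CPM in HDACi-CFC, against 28.1 and 27.3 CPM in Veh-CFC (log2 change -0.58 ± 0.14, adjusted p = 0.00126). For all 3 the groups stood apart, as they did for 73.8% of all genes tested in this class. Per1, which like Per2 also responds early to neuronal activity and to glucocorticoids, had 10.8 and 8.41 CPM in HDACi-CFC, against 11.5 and 8.37 CPM in Veh-CFC. The groups overlapped, and the log2 change of -0.04 ± 0.20 was not called (adjusted p = 0.893).

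The 2 REV-ERB genes also moved apart. Nr1d1 had 13.5 and 14.7 CPM in HDACi-CFC, against 7.27 and 6.26 CPM in Veh-CFC, a 2.12-fold rise (log2 change 1.09 ± 0.18, adjusted p = 4.00e-05). Thra, which overlaps it, had 249 and 229 CPM in HDACi-CFC, against 140 and 143 CPM in Veh-CFC (log2 change 0.75, adjusted p = 5.92e-08), and its part in the Nr1d1 counts was not tested. Nr1d2 had 37.1 and 36.9 CPM in HDACi-CFC, against 44.5 and 47.1 CPM in Veh-CFC. This was the smallest called change, -0.31 ± 0.10 (adjusted p = 0.0158), and without the second HDACi-CFC library or the second Veh-CFC library its adjusted p was 0.06 and 0.17.

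**Figure D2:**
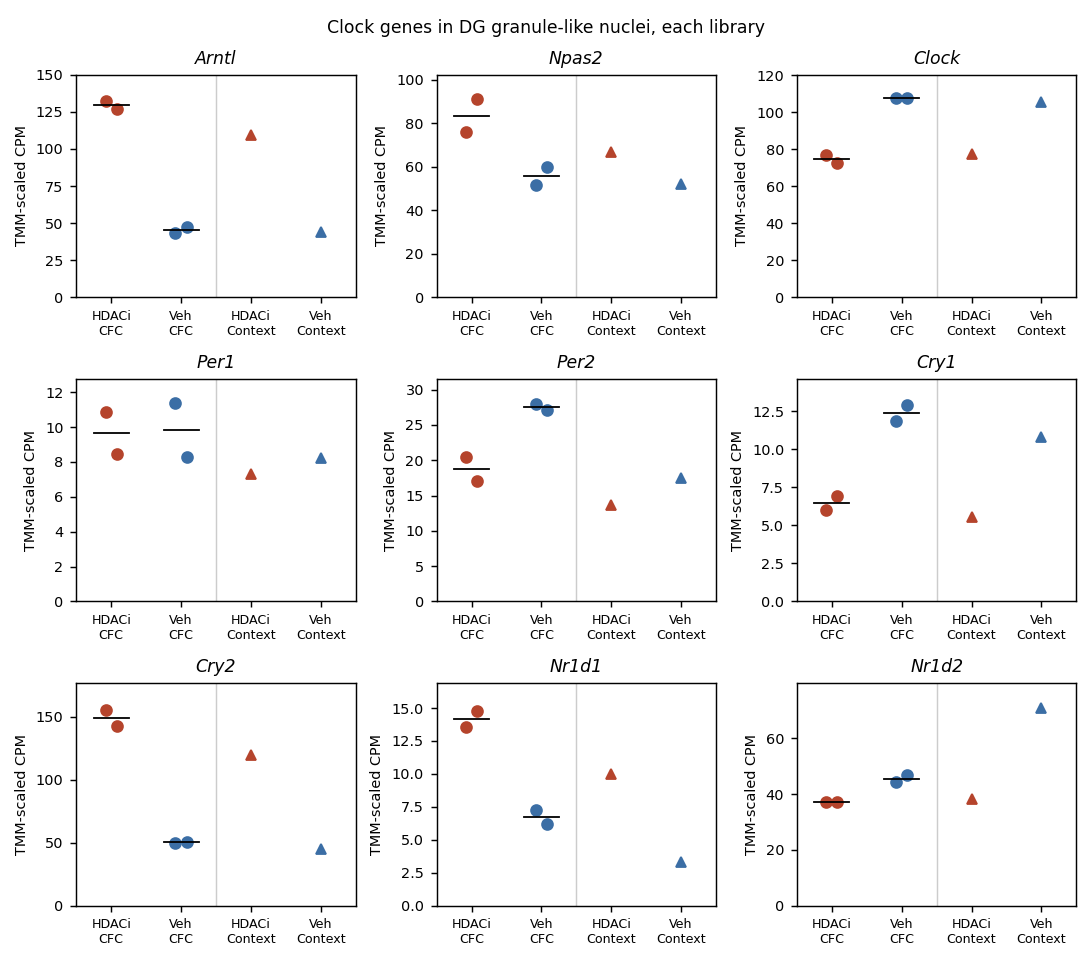
Level of each detected member (TMM-scaled CPM, each panel with its own axis) in DG granule-like nuclei of all 6 libraries; points are libraries and lines the mean of 2. Arntl, Cry2, Nr1d1 and Npas2 lay higher and Clock, Cry1, Per2 and Nr1d2 lower in each HDACi library than in the vehicle libraries of the same exposure.

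No member turned its direction in this class with the scaling, and of the calls Npas2 alone was lost. Relative to TMM, library-size scaling shifted the median log2 change of all genes by -0.363 in DG granule-like nuclei, and counting per nucleus shifted it by -0.504. Over all genes of the class, TMM called 3700 higher and 4128 lower, library-size scaling 1554 higher and 7157 lower, and counting per nucleus 689 higher and 7149 lower. Of the members called in this class, Arntl, Cry2 and Nr1d1 stayed higher (log2 change per nucleus 0.99, 1.04 and 0.58) and Clock, Per2, Cry1 and Nr1d2 stayed lower under all 3 scalings, each with an adjusted p under 0.05. The summed astrocyte marker list (8 genes) was also higher in these DG granule-like nuclei, at 1610 and 1727 CPM in HDACi-CFC, against 1082 and 1028 CPM in Veh-CFC (1475 CPM in HDACi-Context, against 1004 CPM in Veh-Context), as was the DG granule list (8 genes) at 5087 and 5319 CPM, against 4029 and 4109 CPM in Veh-CFC. DG granule-like nuclei came from 3 clusters, of which cluster 4 held 20.7% and 17.9% in HDACi-CFC, against 26.8% and 26.7% in Veh-CFC. Cluster 0 held 42.1% and 46.3% in HDACi-CFC, against 39.2% and 37.1% in Veh-CFC. Slc4a4, a gene of the astrocyte list, was among the genes leading cluster 0, so that list is not specific to astrocytes here. The part of these differences in the member values was not tested. Fitted within each cluster alone, 6 or 7 of the 8 calls were kept.

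In CA1-like nuclei, the output neurons of the hippocampal circuit, 7 of 9 members passed the threshold, 4 higher and 3 lower, where 37.1% of 15169 genes did (18.1% higher and 19.1% lower). Arntl had 267 and 230 CPM in HDACi-CFC, against 85.8 and 85.3 CPM in Veh-CFC, a log2 change of 1.53 ± 0.09 (adjusted p = 6.91e-07). Npas2 had 306 and 349 CPM in HDACi-CFC, against 157 and 159 CPM in Veh-CFC, a log2 change of 1.05 ± 0.09 (adjusted p = 3.84e-06). Both activators stood clear of the vehicle libraries, as 69% of all genes tested in this class did in either direction. Npas2 kept its call under all 3 scalings here. Cry2 had 86.3 and 85.8 CPM in HDACi-CFC, against 46.6 and 43.1 CPM in Veh-CFC, a log2 change of 0.94 (adjusted p = 1.54e-05). Per2 (-0.59), Cry1 (-0.86) and Per1 (-0.47) were lower and Nr1d1 (0.72) was higher. Of these, Per1 and Cry1 lost their calls without the second HDACi-CFC library (adjusted p = 0.205 and 0.077) or the second Veh-CFC library (0.204 and 0.0902). Nr1d1 had 11.1 and 18.5 CPM in HDACi-CFC, against 8.80 and 9.74 CPM in Veh-CFC, and without the higher treated library its log2 change was 0.26 (adjusted p = 0.471). Thra rose there too (0.59, adjusted p = 0.000159). Clock at -0.19 (adjusted p = 0.118) and Nr1d2 at -0.25 (adjusted p = 0.0867) did not pass, although both passed with library-size scaling (-0.52 and -0.59). That scaling shifted the median log2 change of all genes in this class by -0.337. It called 6251 of the 15169 genes lower, against 2894 with TMM.

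**Figure D3:**
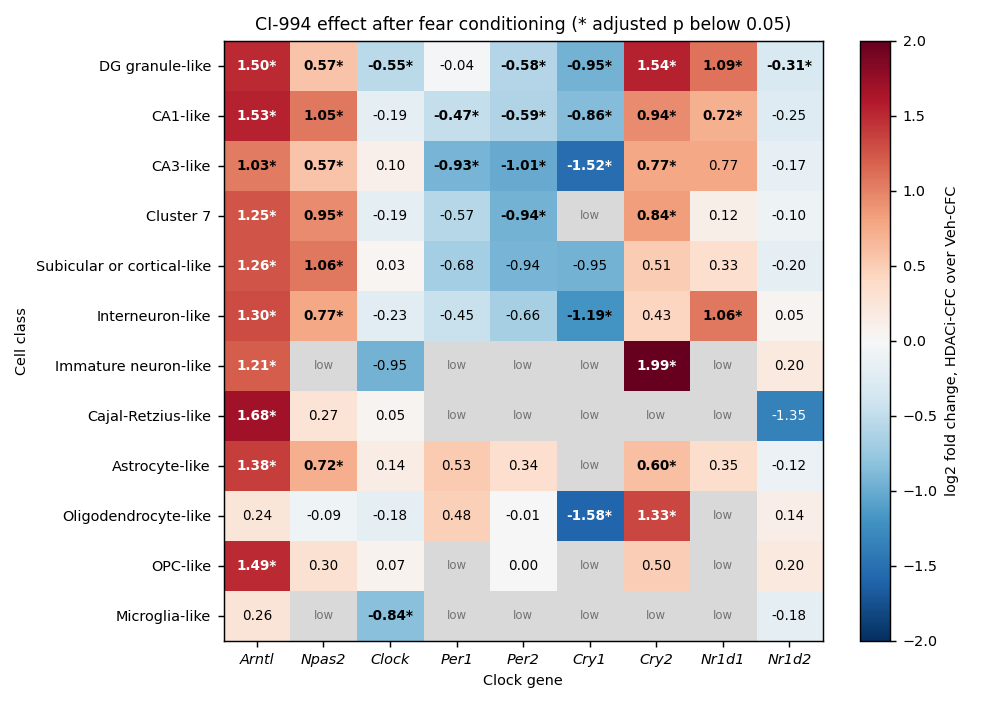
Log2 change of each detected member, HDACi-CFC over Veh-CFC, in 12 classes of nuclei; number and colour give the change (TMM scaling), an asterisk an adjusted p under 0.05 and "low" a gene with too few counts to be tested. Arntl, Npas2 and Cry2 are called in 1 direction (higher) and Cry1 and Per2 in the other wherever they are called.

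Across the 12 classes, 86 of 120 class and member pairs had counts enough to be tested, and 41 were called, 27 higher and 14 lower. Of all genes tested in a class, 11.6% to 50.2% were called, 7.21% to 23.7% higher and 4.21% to 26.5% lower. No member was called in both directions. Arntl rose in 10 of 12 classes, Npas2 in 7 of 10 and Cry2 in 7 of 10. Nr1d1 rose in 3 of 7. Cry1 fell in 5 of 6 classes, Per2 in 4 of 9, Per1 in 2 of 8, Clock in 2 of 12 and Nr1d2 in 1 of 12. Under library-size scaling the calls numbered 8 for Arntl, 5 for Npas2, 6 for Cry2 and 1 for Nr1d1 (higher), and 5 for Cry1, 6 for Per2, 3 for Per1, 7 for Clock and 3 for Nr1d2 (lower). Counted per nucleus they numbered 7 for Arntl, 1 for Npas2, 3 for Cry2 and 1 for Nr1d1 (higher), and 5 for Cry1, 5 for Per2, 3 for Per1, 7 for Clock and 2 for Nr1d2 (lower). Over all genes, library-size scaling called fewer higher and more lower than TMM in every class. It shifted the class medians by -0.230 to -0.363, and counting per nucleus by -0.068 to -0.504. In interneuron-like nuclei, for example, 1602 of 12175 genes were lower with TMM, 4153 with library-size scaling and 3399 per nucleus. Summed over all kept nuclei, 8 of the 9 members passed, where 47% of all genes did (21.7% higher and 25.3% lower). Arntl (log2 change 1.31), Cry2 (1.03), Npas2 (0.78) and Nr1d1 (0.65) were higher and Cry1 (-1.13), Per2 (-0.64), Clock (-0.35) and Nr1d2 (-0.31) lower, and Per1 (-0.27, adjusted p = 0.0678) was not called; Thra was at 0.57. In that sum a change in the mix of cells cannot be told apart from a change within them.

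Among the other neurons, CA3-like nuclei had 6 called members (26.9% of all genes called, 14.4% higher and 12.5% lower), with Arntl (log2 change 1.03), Cry2 (0.77) and Npas2 (0.57) higher and Per1 (-0.93), Per2 (-1.01) and Cry1 (-1.52) lower. Arntl and Cry2 were called there in every fit that left out 1 library, and the other 4 each lost their call in at least 1 such fit. Cluster 7 (26.2% of genes called, 14.5% higher and 11.6% lower) had Arntl (1.25), Npas2 (0.95) and Cry2 (0.84) higher and Per2 (-0.94) lower, the last not without the second HDACi-CFC or the first Veh-CFC library (adjusted p = 0.117 and 0.0712). Interneuron-like nuclei (30% called, 16.9% higher and 13.2% lower) had Arntl (1.30), Npas2 (0.77) and Nr1d1 (1.06) higher and Cry1 (-1.19) lower, and Nr1d1 and Cry1 each lost the call in at least 1 fit without a library, while Thra was at 0.82 there. Subicular or cortical-like nuclei (11.6% called, 7.21% higher and 4.39% lower) had Arntl (1.26) and Npas2 (1.06) higher. This class held 40 and 113 nuclei in HDACi-CFC, against 126 and 118 in Veh-CFC, and its summed astrocyte marker list was at 1107 and 887 CPM in HDACi-CFC, against 581 and 499 CPM in Veh-CFC, the part of which was not tested. Immature neuron-like nuclei (12.5% called, 8.24% higher and 4.21% lower) had Arntl (1.21) and Cry2 (1.99) higher, from 72 and 42 UMIs over the 4 libraries and with the astrocyte list at 1288 and 1102 CPM in HDACi-CFC, against 747 and 716 CPM in Veh-CFC, and Cajal-Retzius-like nuclei (14.3% called, 9.18% higher and 5.09% lower) had Arntl higher (1.68, from 49 UMIs). The calls in these last 2 classes were lost in fits without 1 library (lowest count of calls 0 in both).

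Among the glia the pattern was uneven. Astrocyte-like nuclei had 3 of 8 tested members higher and 0 lower, where 30.8% of all genes were called (17.3% higher and 13.6% lower). In astrocyte-like nuclei Arntl had 407 and 369 CPM in HDACi-CFC, against 125 and 169 CPM in Veh-CFC, a log2 change of 1.38 ± 0.18 (adjusted p = 2.95e-10). Npas2 had 631 and 675 CPM in HDACi-CFC, against 384 and 408 CPM in Veh-CFC, a log2 change of 0.72 ± 0.15 (adjusted p = 4.28e-05). Both activators thus rose in the class where their CPM, though not their UMIs per nucleus, was highest without the drug. Their groups did not overlap, as for 64.3% of all genes tested in this class. Cry2 had 134 and 138 CPM in HDACi-CFC, against 89.9 and 89.6 CPM in Veh-CFC, and its change of 0.60 (adjusted p = 0.0265) was lost without the second HDACi-CFC library, the first Veh-CFC library or the second Veh-CFC library (0.141, 0.109 and 0.161). Per1 (0.53), Per2 (0.34), Nr1d1 (0.35), Clock (0.14) and Nr1d2 (-0.12) were not called, and Cry1 had too few counts.

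In oligodendrocyte-like nuclei, the myelinating glia, 2 of 8 tested members were called, where 37.1% of all genes were (19.6% higher and 17.4% lower). Cry1 had 4.17 and 5.91 CPM in HDACi-CFC, against 19.4 and 13.5 CPM in Veh-CFC, a log2 change of -1.58 (adjusted p = 0.0105), or 0.0847 without the first Veh-CFC library. Cry2 had 73.6 and 77.6 CPM in HDACi-CFC, against 36.4 and 25.4 CPM in Veh-CFC, a log2 change of 1.33 (adjusted p = 0.000233). The opposite movement of the 2 cryptochromes was thus called in DG granule-like, CA1-like, CA3-like and oligodendrocyte-like nuclei. Arntl, in contrast, had 27.8 and 36.9 CPM in HDACi-CFC, against 27.5 and 28.8 CPM in Veh-CFC, a log2 change of 0.24 ± 0.25 (adjusted p = 0.468). OPC-like nuclei, the precursors of these cells (28.1% of genes called, 16.5% higher and 11.6% lower), had 1 member called, Arntl at 149 and 156 CPM in HDACi-CFC, against 36.2 and 69.7 CPM in Veh-CFC (log2 change 1.49, adjusted p = 0.000179). In microglia-like nuclei (39.2% of genes called, 20.8% higher and 18.5% lower) Clock was lower, at 79.9 and 64.1 CPM in HDACi-CFC, against 141 and 116 CPM in Veh-CFC (log2 change -0.84, adjusted p = 0.015), and was not called without the second HDACi-CFC library or the first Veh-CFC library (0.199 and 0.129). Arntl in microglia-like nuclei changed by 0.26 ± 0.39 (adjusted p = 0.614).

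**Figure D4:**
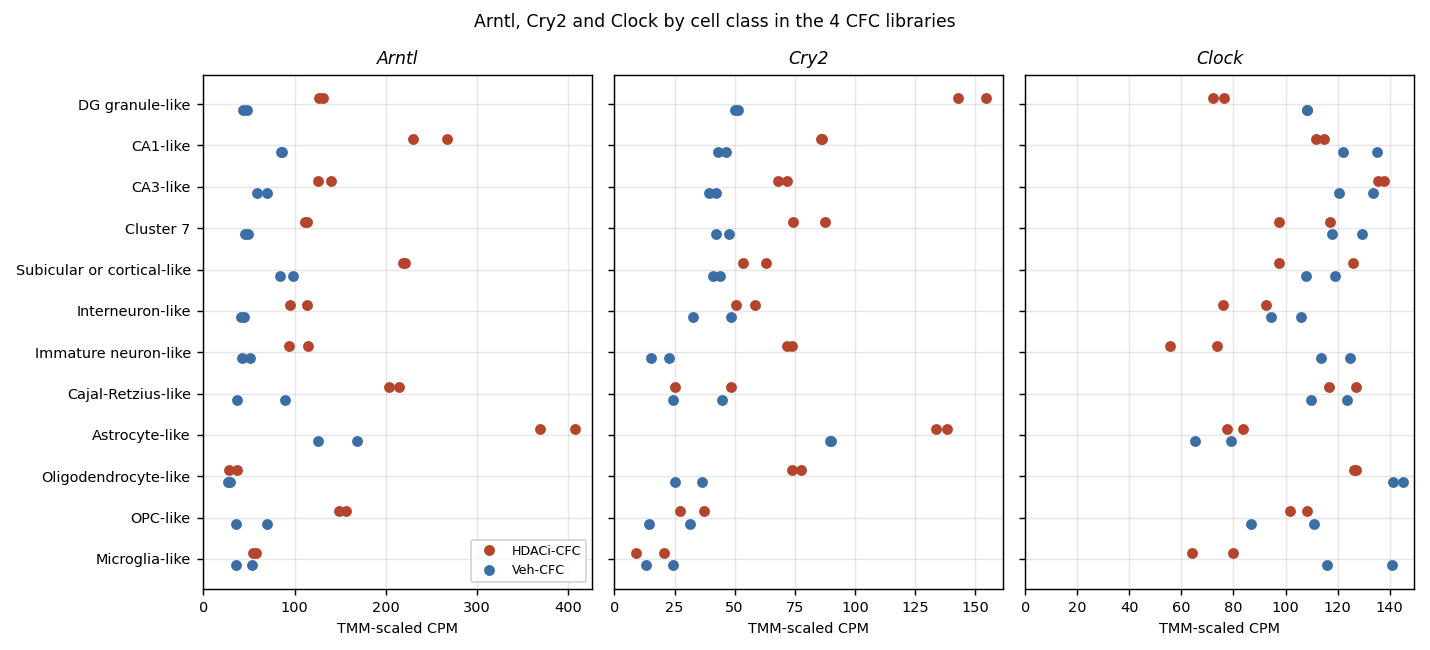
Levels of Arntl, Cry2 and Clock (TMM-scaled CPM, horizontal axis) in the 4 CFC libraries for each class of nuclei. Points are libraries, with HDACi-CFC drawn above Veh-CFC within each class. Arntl is higher in both treated libraries in 11 of 12 classes, with oligodendrocyte-like and microglia-like nuclei showing the smallest gaps. Of all genes tested in a class, 56.3% to 73.8% stood apart between the groups in either direction.

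The drug effect in each class was then tested against that in DG granule-like nuclei, as a class by drug term fitted with the library as a block. Cry2 differed in the most classes, its response being smaller in CA1-like (difference in log2 change -0.66, adjusted p = 2.25e-08), CA3-like (-0.86, 1.65e-05), Cluster 7 (-0.78, 0.00155), subicular or cortical-like (-1.09, 0.000839), interneuron-like (-1.22, 2.86e-07) and astrocyte-like nuclei (-1.05, 0.000366). Its difference in microglia-like nuclei was -1.95 (0.0138). Arntl responded less in CA3-like (-0.55, 0.00153), oligodendrocyte-like (-1.09, 0.00126) and microglia-like nuclei (-1.34, 0.00608). Npas2 responded more in CA1-like nuclei (0.42, 6.74e-05), and its difference in microglia-like nuclei was -1.57 (0.0391). The Clock change was less negative in CA1-like (0.28, 0.0143) and oligodendrocyte-like nuclei (0.52, 0.0153). In CA3-like nuclei (0.56, 0.000122) the Clock change was uncalled and not negative. Clock had 138 and 136 CPM there in HDACi-CFC, against 119 and 131 CPM in Veh-CFC (TMM over all 6 libraries). Nr1d2, lower in DG granule-like nuclei, had an uncalled change of 0.14 in oligodendrocyte-like nuclei (difference 0.59, 0.0411). In all, 16 of 99 differences passed, where the share of all genes passing was 17.7% in CA1-like, 14% in CA3-like, 9.73% in Cluster 7, 4.98% in subicular or cortical-like, 15.7% in interneuron-like, 9.68% in astrocyte-like, 16.2% in oligodendrocyte-like and 11.1% in microglia-like nuclei. The share was 0.565% in immature neuron-like, 0.726% in Cajal-Retzius-like and 8.79% in OPC-like nuclei, where no member passed. Neither Npas2 nor Cry2 had counts enough to be tested in microglia-like nuclei alone, where 3 members were. Both entered the joint fit through a count filter met by their DG granule-like counts, so their differences there are no measure of a microglial response. The 99 differences include other pairs with too few counts in the compared class, and the shares of all genes include such genes too. Leaving out single libraries gave 8 to 14 differences, with 8 when the second Veh-CFC library was left out. The Cry2 differences in CA1-like, CA3-like, Cluster 7 and interneuron-like nuclei, the Clock difference in CA3-like nuclei and the Arntl difference in oligodendrocyte-like nuclei passed in all 6 other fits run.

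The Context libraries gave the same contrast without shocks, 1 library a group, so the ratios carry only a 95% counting interval and no test. In DG granule-like nuclei Arntl had 109 CPM (1472 UMIs) in HDACi-Context, against 44.3 CPM (634 UMIs) in Veh-Context, a log2 ratio of 1.31 (interval 1.17 to 1.44). Cry2 had 120 CPM in HDACi-Context, against 45.0 CPM in Veh-Context (1.41, interval 1.28 to 1.55), and Nr1d1 had 9.96 CPM, against 3.35 CPM (1.57, interval 1.09 to 2.08), where Thra was at 0.72. Npas2 was higher by a smaller ratio (0.37, interval 0.22 to 0.51), which was 0.02 with library-size scaling. Nr1d2 (-0.88, interval -1.04 to -0.73), Cry1 (-0.96, interval -1.37 to -0.55), Clock (-0.45, interval -0.57 to -0.34) and Per2 (-0.36, interval -0.64 to -0.08) were lower, and the Per1 interval spanned 0 (-0.58 to 0.22). Intervals lay above 0 for 31.1% and below 0 for 31% of all genes in this class.

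In CA1-like nuclei of the Context libraries the log2 ratio was 1.18 for Arntl, 0.90 for Npas2, 0.82 for Cry2 and 0.85 for Nr1d1, and -1.03 for Per2, -0.99 for Cry1, -0.82 for Nr1d2, -0.49 for Per1 and -0.25 for Clock, each with an interval on 1 side of 0, and 0.50 for Thra. In that class 27.1% of all genes had an interval above 0 and 26.5% below. In astrocyte-like nuclei the ratio was 1.49 for Arntl, 0.87 for Npas2, 0.77 for Cry2, 1.07 for Nr1d1 and 0.68 for Clock (interval 0.13 to 1.23), and 0.71 for Thra, where 19.4% of genes lay above 0 and 13.2% below. In oligodendrocyte-like nuclei Cry2 was at 1.37 and Cry1 at -2.41 (4 UMIs in HDACi-Context, against 27 in Veh-Context), and Arntl at 0.09 (interval -0.59 to 0.76). There 23.4% of genes lay above 0 and 19.7% below. All 41 class and member pairs called in CFC had the same sign in Context, 31 with an interval that left out 0. Over the 35259 gene and class pairs called in CFC with at least 20 UMIs in Context, these shares were 94.6% and 73.2%, so the members followed the other genes in this.

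**Figure D5:**
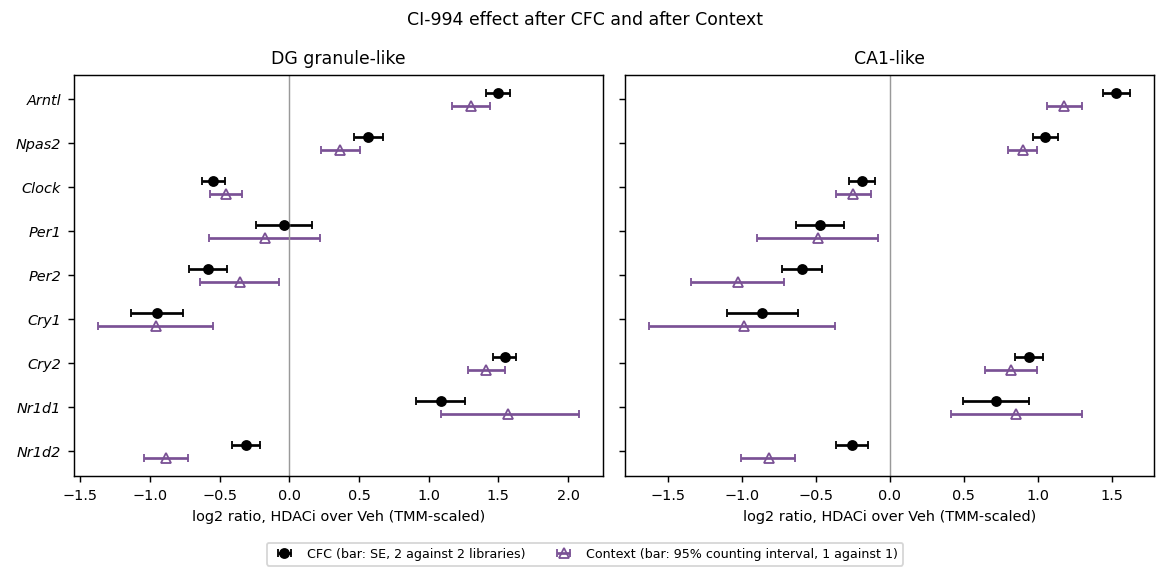
Log2 ratio of HDACi over vehicle for each detected member in DG granule-like and CA1-like nuclei; CFC values carry the SE of the fit over 2 libraries a group, and Context values a 95% counting interval for 1 library a group. Signs match between the exposures for all 9 members in both classes, and the Nr1d2 Context value lies furthest from its CFC value in DG granule-like nuclei.

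The difference between the exposures was tested as a drug by exposure term over the 6 libraries, in which the lone Context libraries are assumed to vary like the CFC ones. No member passed in any class (0 of 96 pairs at an adjusted p under 0.05 in edgeR, 10 with an unadjusted p under 0.05). Among all genes 0.842% passed in DG granule-like and 0.264% in CA1-like nuclei. The lowest adjusted p within a class was that of Nr1d2 in DG granule-like nuclei, where the log2 ratio in Context minus that in CFC was -0.56 ± 0.17 (SE; adjusted p = 0.148), and over all nuclei summed the same difference was -0.56 ± 0.14 (adjusted p = 0.0893). Among the vehicle libraries, Nr1d2 lay above both Veh-CFC libraries in the library labelled Veh-Context in 11 of 12 classes. Per2 lay below both in 9, and Arntl, Npas2, Per1 and Cry1 in 7 each. These classes come from the same libraries and are not separate observations, and the share of all genes placed so is not given here. Exposure cannot be told apart from batch in that comparison, because the Context libraries were processed with another Cell Ranger version than the CFC libraries, per the file headers. The summed microglia marker list (9 genes) also differed between these libraries outside microglia-like nuclei. In DG granule-like nuclei it was at 305 CPM in HDACi-Context and 442 CPM in the library labelled Veh-Context, against 176 and 168 CPM in Veh-CFC, and in CA1-like nuclei at 157 CPM in HDACi-Context and 285 CPM in Veh-Context, against 88.4 and 91.6 CPM in Veh-CFC. In oligodendrocyte-like nuclei it was at 340 CPM in HDACi-Context and 692 CPM in Veh-Context, against 189 and 196 CPM in Veh-CFC, and its part in the Context values was not tested.

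The genes that read or feed the loop were described from lists of other clock genes. Of 7 output genes (PAR bZIP factors, their antagonist Nfil3, the Dec genes and Ciart), 2 were higher and 3 lower in DG granule-like nuclei, with a median of -0.30. Of all genes tested in that class, 23.7% were higher and 26.5% lower. Hlf, a PAR bZIP factor acting at D-boxes, had 141 and 120 CPM in HDACi-CFC, against 64.9 and 66.4 CPM in Veh-CFC (log2 change 0.98, adjusted p = 2.20e-08), and Nfil3 rose by 1.21 on the log2 scale. Ciart, a repressor of the CLOCK and ARNTL pair, had 2.33 and 0.874 CPM in HDACi-CFC, against 5.43 and 5.81 CPM in Veh-CFC (log2 change -1.94, adjusted p = 0.000107), and Tef (-0.30) and Bhlhe40 (-0.43) were also lower. In CA1-like nuclei 2 were higher and 2 lower, where 18.1% of all genes were higher and 19.1% lower. Dbp, another PAR bZIP factor, had 8.58 and 6.99 CPM there in HDACi-CFC, against 17.2 and 12.8 CPM in Veh-CFC (log2 change -0.96, adjusted p = 0.00356).

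Genes of the corepressor complex of the REV-ERB proteins were also described in DG granule-like nuclei. Tbl1x, a subunit of the NCoR complex, had 92.0 and 97.2 CPM in HDACi-CFC, against 22.8 and 25.5 CPM in Veh-CFC (log2 change 1.96, adjusted p = 1.06e-11), and Tbl1xr1 (0.75) and Ncor1 (0.37) were higher as well, the last not with library-size scaling. Gps2 was lower (-0.37), and Hdac3 itself was not called (0.25, adjusted p = 0.0602). Of 10 kinases and ubiquitin-pathway genes that set the stability of PER and CRY proteins, 4 were higher and 0 lower, among them Usp2 (0.79) and Csnk1a1 (0.57). Of all genes of the class, 23.7% were higher and 26.5% lower. With library-size scaling 3 of the list were higher and 6 lower, where 1554 of all 15600 genes were higher and 7157 lower. Of the RORs, which compete with the REV-ERB proteins, Rora was higher (0.31) under TMM only. Glucocorticoid targets, listed because Per1 is one of that hormone's targets, had 5 of 8 tested genes higher and 0 lower (median 0.60; 4 and 0 with library-size scaling, 1 and 0 per nucleus), where 23.7% of all genes of the class were higher, led by Zbtb16 (1.18). Early genes driven by CREB, a route by which neuronal activity reaches Per1, had 3 of 8 higher and 1 lower, beside the 23.7% and 26.5% of all genes. Their median was 0.83, and 3 were higher and 3 lower with library-size scaling. Ptgs2 (1.77) and Bdnf (1.27) were higher and Sik1 (-1.18) was lower.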

How the data were processed

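The deposited matrices hold raw UMI counts per gene and nucleus, made by the authors with 10x Chromium 3' libraries and, per the file headers, Cell Ranger 3.0.1 (CFC) or 3.0.2 (Context); mm10 is the build per the submitters' processing notes. Whether intron reads and strand were counted is not given in the sources used here. Gene models and start sites came from annotations of GRCm38, and 30934 of 31053 genes matched. The members, marker lists and gene lists were chosen with earlier results of these data known.

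Barcodes were kept from 500 genes upwards if no more than 5% of their UMIs were mitochondrial, doublets called by Scrublet (expected rate 0.06; 1.98% to 4.54% of a library) were dropped, and the nuclei were clustered with scanpy 1.11.5 (2000 variable genes without the clock lists, scaled within each library; 30 components, 20 neighbours, Leiden at resolution 1) into 28 clusters, of which 4 were left unnamed. A cluster was named from its marker list only where at least 3 markers were detected. Mossy-like, endothelial-like and leptomeningeal fibroblast-like nuclei and 674 unnamed ones had too few nuclei or no name and were not analysed as classes.

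Summed counts were tested per class with edgeR 4.0.16 (R 4.3.3; filterByExpr, TMM, quasi-likelihood test), HDACi-CFC against Veh-CFC, p-values adjusted by the Benjamini-Hochberg method within the class and a threshold of 0.05. Each library pools 5 mice, so the p-values measure the spread between such pools, with 2 libraries a group. Context ratios used exact binomial intervals, which cover counting error only. Class and exposure differences were interaction terms. Genes outside the set were named where called, at most 6 per list by smallest adjusted p. A result of the corepressor list is not reported here. Replicates correlated at 0.992 (HDACi-CFC) and 0.994 (Veh-CFC) in log2 CPM, against 0.971 to 0.974 across the groups. The scripts were tested on simulated data. Alternatives were library-size and per-nucleus scaling, DESeq2 1.42.0, no filter on low counts, a replicate block, all 6 libraries with exposure as a covariate, doublets kept, a marker gate per nucleus in place of clusters, single clusters and each library left out.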

Additional observations from a re-analysis of the deposited data

Results flagged for a closer look

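Of 99 class and member pairs tested against DG granule-like nuclei, 16 passed. In these the response to the inhibitor differed by the test of the difference itself. Among all genes, 4.98% (subicular or cortical-like) to 17.7% (CA1-like) passed in the classes concerned. In the other classes, where no member passed, 0.565% to 8.79% did. The differences in log2 change, class minus DG granule-like, were as follows. For Cry2 they were -0.66 in CA1-like (adjusted p = 2.25e-08), -0.86 in CA3-like (1.65e-05), -0.78 in Cluster 7 (0.00155), -1.09 in subicular or cortical-like (0.000839), -1.22 in interneuron-like (2.86e-07), -1.05 in astrocyte-like (0.000366) and -1.95 in microglia-like nuclei (0.0138). For Arntl they were -0.55 in CA3-like (0.00153), -1.09 in oligodendrocyte-like (0.00126) and -1.34 in microglia-like nuclei (0.00608). For Npas2 they were 0.42 in CA1-like (6.74e-05) and -1.57 in microglia-like nuclei (0.0391). For Clock they were 0.28 in CA1-like (0.0143), 0.56 in CA3-like (0.000122) and 0.52 in oligodendrocyte-like nuclei (0.0153), and for Nr1d2 0.59 in oligodendrocyte-like nuclei (0.0411). Cry2 and Npas2 had too few counts to be tested in microglia-like nuclei alone. Their differences there rest on a count filter met by the DG granule-like counts and are no measure of a microglial response.

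Single libraries decided several of these. The Nr1d2 difference in oligodendrocyte-like nuclei and the Npas2 difference in microglia-like nuclei passed in none of the 4 fits that left out a CFC library, with adjusted p of 0.106 to 0.264 and of 0.0537 to 0.68. Clock in oligodendrocyte-like nuclei passed only without the first HDACi-CFC library, and Clock in CA1-like nuclei failed without the second HDACi-CFC library (0.139) and without the first Veh-CFC library (0.174). Cry2 in subicular or cortical-like nuclei failed without either Veh-CFC library (0.112 and 0.0614), and Cry2 in astrocyte-like nuclei without the first HDACi-CFC library (0.0513). Without the second Veh-CFC library, Npas2 in CA1-like (0.0705), Arntl in CA3-like (0.115) and Arntl and Cry2 in microglia-like nuclei (0.476 and 0.645) failed as well. In microglia-like nuclei Arntl failed also without either HDACi-CFC library (0.102 and 0.16), and Cry2 without the first of them (0.256). With library-size scaling Arntl in CA3-like (-0.34, adjusted p = 0.0687), Clock and Nr1d2 in oligodendrocyte-like (0.0913 and 0.144) and Npas2 in microglia-like nuclei (0.101) did not pass. With no filter on low counts the differences in oligodendrocyte-like nuclei were 0.21 for Clock (0.693) and 0.28 for Nr1d2 (0.661), and that of Npas2 in microglia-like nuclei had an adjusted p of 0.0784.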

How the results depend on the processing

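Of the 49 class and member results called (all nuclei together counted as a class), 42 kept the call with library-size scaling, 32 per nucleus, 32 of 43 with DESeq2, 47 with no filter on low counts, 48 with all 6 libraries, 38 of 41 with doublets kept and 26 of 35 with the marker gate, and 31 kept it in every fit that left out 1 library. No called result turned its sign. Whether a replicate number marks a shared batch is not given in the labels. The same-number correlation (-0.0945 to 0.128 over the classes, 0.16 in all nuclei) rests on 2 libraries a group and cannot decide it. The first HDACi-CFC and Veh-CFC libraries held 24508202 and 27168385 UMIs, against 39480383 and 37732552 in the second ones. With the replicate block 48 of 49 were kept, the Arntl call in Cajal-Retzius-like nuclei being lost. The alternatives by single CA1-like clusters and those of the class and exposure differences were added after seeing the data. The causes of the changes below were not tested. Low counts limit the small classes, with 49 Arntl UMIs in Cajal-Retzius-like nuclei over the 4 CFC libraries.

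Counts of members called moved with DESeq2 (CA1-like 4, CA3-like 2, interneuron-like 2, oligodendrocyte-like 1, and 0 in immature neuron-like, Cajal-Retzius-like and microglia-like nuclei), with the marker gate (DG granule-like 4, interneuron-like 2, oligodendrocyte-like 1, immature neuron-like 0), with doublets kept (immature neuron-like 1, microglia-like 0), per nucleus (astrocyte-like 1, and 0 in subicular or cortical-like and Cajal-Retzius-like nuclei), in CA1-like cluster 5 alone (4), and in Cajal-Retzius-like nuclei with the block (0) and all 6 libraries (2). Without single libraries they ranged over 4 to 7 (CA1-like), 3 to 5 (CA3-like), 0 to 2 (immature neuron-like), 0 to 1 (Cajal-Retzius-like and microglia-like) and 1 to 3 (oligodendrocyte-like), and the class differences over 8 to 14.

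These uncalled values turned their sign. Clock in astrocyte-like nuclei was -0.16 with library-size scaling, -0.32 per nucleus, -0.29 with doublets kept and -0.086 by the gate, and in CA1-like cluster 5 alone 0.015. Arntl was -0.11 and -0.26 in oligodendrocyte-like and -0.000259 and -0.21 in microglia-like nuclei (library size, per nucleus), and -0.0301 by the gate in the second. Nr1d2 in oligodendrocyte-like nuclei was -0.22, -0.36 and, over 6 libraries, -0.18. Per nucleus, Per2 (-0.13) and Nr1d1 (-0.12) in astrocyte-like and Per1 (-0.0105) in oligodendrocyte-like nuclei turned. Npas2 in oligodendrocyte-like nuclei was 0.42 with doublets and 0.17 by the gate, Per2 there 0.0119 with the block, and Per1 in DG granule-like cluster 0 alone 0.33. Without single libraries Per1 in DG granule-like nuclei ranged from -0.27 to 0.17, Per2 in astrocyte-like from -0.00212 to 0.55, and in oligodendrocyte-like nuclei Arntl from -0.0135 to 0.40, Npas2 from -0.54 to 0.13 and Per2 from -0.31 to 0.42.

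The log2 excess of vehicle astrocyte-like over DG granule-like nuclei per nucleus was 0.42 for Arntl, -1.71 for Clock, 1.48 for Npas2, 1.31 for Per1, -0.87 for Cry1 and 2.18 for Nr1d1, and it turned for Per2 (-0.018), Cry2 (-0.23) and Nr1d2 (-0.19).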
